A study of Homo sapiens with 10 samples.

Results

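The EGF receptor (EGFR), 6 of its ligands (HBEGF, AREG, EREG, TGFA, BTC and EGF) and the receptor's feedback inhibitor ERRFI1 were followed in cultured human retinal pigment epithelium cells exposed to merbarone, which blocks the catalytic cycle of topoisomerase II. These 8 genes were taken by name, and all 8 had a row in the tables, of 20327 genes in all. RNA was sequenced from hTERT RPE-1 cells, a telomerase-immortalised line derived from retinal pigment epithelium, labelled as wild type in every library. All cells had been held for 48 h in 0.1% FBS. In 1 experiment, 3 libraries from cells given merbarone at 200 µM for 30 min were set against 3 libraries from cells given the vehicle DMSO for 30 min. In the other, 2 libraries from cells given merbarone at 200 µM for 2 h were set against 2 from untreated cells. The untreated cells had received no vehicle, so effects of merbarone and of a vehicle cannot be told apart at 2 h. The labels do not say whether the replicates were separate cultures, so the p-values measure only the spread between these libraries.

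The EGF receptor is a receptor tyrosine kinase of the ERBB family. Its ligands are made as membrane-anchored precursors that ADAM proteases cut free, and a bound ligand brings receptors together, starts the RAS to ERK cascade and leads to receptor internalisation. HBEGF and ERRFI1 are well known as genes that growth factors and stress induce, and ERRFI1 protein (also called MIG6) binds the receptor's kinase domain and inhibits it, which closes a feedback loop.

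Libraries of the 30 min experiment held 26633780 to 38225538 reads assigned to genes and those of the 2 h experiment 11956652 to 13691014. Levels are given as deposited, in RPKM, reads per kilobase of gene scaled for the depth of the library, where for most genes the length was close to the whole gene span with its introns. For that reason levels are compared between genes only with exon length in place of that length, computed from the recovered reads and called the exon-scaled level. The recovered reads may include intron reads, which would raise this level in genes with long introns. Their share was not tested. Of 25 cell type markers 24 were matched. Among the 8 pigment epithelium markers PMEL, OTX2 and BEST1 had means of at least 1 RPKM, while RPE65, TYR, RLBP1 and TYRP1, which define the differentiated tissue, were under 0.1. Among the 5 simple epithelium markers EPCAM, CDH1 and KRT19 were also under 0.1, while KRT18 and KRT8 averaged 35.6 and 3.62 RPKM. Of the 6 mesenchyme markers VIM, FN1 and COL1A1 averaged 804, 172 and 3.00 RPKM, while COL1A2, DCN and LUM were under 0.1. In the blood list HBB was at 0 in every library and PTPRC under 0.1, but CD68 averaged 24.4 RPKM. Of the endothelium markers CDH5 was at 0 in every library and VWF under 0.1. These marker levels are in RPKM as deposited, so their order between genes depends on gene length.

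The 250 bases before the transcription start were read from RefSeq (GRCh38.p14) for all 8 genes, and 4 are shown. These are HBEGF, ERRFI1 and EGFR, the 3 of the 8 with the most reads, and, last, EREG, a ligand gene with almost none. Each is written 5′ to 3′ on the gene's own strand, and capitals mark matches, on either strand, to the motifs searched.
HBEGF, chr5:140346604-140346853, minus strand: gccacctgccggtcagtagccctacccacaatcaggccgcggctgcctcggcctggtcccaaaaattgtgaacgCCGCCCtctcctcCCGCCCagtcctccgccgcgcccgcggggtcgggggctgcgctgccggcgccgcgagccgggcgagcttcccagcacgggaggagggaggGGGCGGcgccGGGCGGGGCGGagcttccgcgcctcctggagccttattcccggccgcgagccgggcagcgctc
ERRFI1, chr1:8026310-8026559, minus strand: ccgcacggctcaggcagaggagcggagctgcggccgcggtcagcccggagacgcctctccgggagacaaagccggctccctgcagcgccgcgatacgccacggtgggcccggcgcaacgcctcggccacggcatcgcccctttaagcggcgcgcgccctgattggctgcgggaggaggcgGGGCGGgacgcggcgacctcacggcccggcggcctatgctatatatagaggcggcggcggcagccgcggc
EGFR, chr7:55018767-55019016, plus strand: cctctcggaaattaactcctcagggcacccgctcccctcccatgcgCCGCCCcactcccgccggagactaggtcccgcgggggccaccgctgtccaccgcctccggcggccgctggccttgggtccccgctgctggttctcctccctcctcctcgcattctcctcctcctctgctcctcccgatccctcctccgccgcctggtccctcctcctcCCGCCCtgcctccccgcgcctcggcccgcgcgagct
EREG, chr4:74364895-74365144, plus strand: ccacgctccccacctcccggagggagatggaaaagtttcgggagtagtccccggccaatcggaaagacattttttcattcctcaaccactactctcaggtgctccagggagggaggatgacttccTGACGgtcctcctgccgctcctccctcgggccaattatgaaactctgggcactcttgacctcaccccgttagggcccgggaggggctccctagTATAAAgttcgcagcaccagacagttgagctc
One motif searched was the GC box, GGGCGG. The HBEGF window held 5 GC boxes, of which the last 2 overlap by a base, the EGFR window 2 and the ERRFI1 window 1. A GC box is present in 42.3% of 27305 promoter windows of this length. Another was the TATA motif, searched as TATAAA, with 1 match in the EREG window and a match in 11.1% of all windows. The half-site of the cyclic AMP response element, TGACG, also had 1 match there and occurs in 21.7% of windows. Also searched were AP-1, as TGANTCA, the CArG box and the amino acid response element, as TGATGNAA, which had no match in the 4 windows shown and occur in 6.6%, 1.14% and 3.19% of all windows. GC content was 76.4% for HBEGF, 75.2% for ERRFI1, 73.6% for EGFR and 58% for EREG, against a median of 58% over all windows. No match says only that these letters are not in the window.

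Of the 6 ligands, with AREG listed at an uncertain 0, HBEGF, heparin-binding EGF-like growth factor, had the highest level in every library. It rose after 2 h of merbarone, against controls without vehicle. The untreated libraries had 1.202 and 1.097 RPKM, and the libraries at 2 h of merbarone had 3.61 and 4.97. Both treated libraries lay well above both untreated ones, and also above all 6 libraries of the 30 min experiment, whose highest HBEGF value was 1.44. Of 6558 genes that averaged 1 RPKM or more over all libraries, 12.6% had both 2 h merbarone libraries above the other 8. The means were 1.15 ± 0.0743 and 4.29 ± 0.965 RPKM (SD, n = 2 each), a 3.73-fold ratio that rested on 402 reads in the untreated pair and 1575 in the treated pair. In limma on log2(RPKM + 1) the change was 1.29 (SE 0.12), with a Benjamini-Hochberg adjusted p of 0.000185 over 6620 genes, and in size it ranked 38 from the top of those genes.

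After 30 min of merbarone the HBEGF values overlapped those of the vehicle. DMSO libraries had 1.29, 0.784 and 0.728 RPKM, and merbarone libraries 1.44, 0.931 and 0.875. Replicate 1 was high in both groups, and within each same-numbered pair the merbarone library was the higher one, by 11.6%, 18.6% and 20.2%. The change on the log2(RPKM + 1) scale was 0.11 (SE 0.14) with a limma adjusted p of 1.000. With the replicate number as a block, which the libraries of this experiment allow, it was 0.11 (SE 0.02), unadjusted p = 0.00389 and adjusted p = 0.744, so it did not pass either way.

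**Figure D1:**
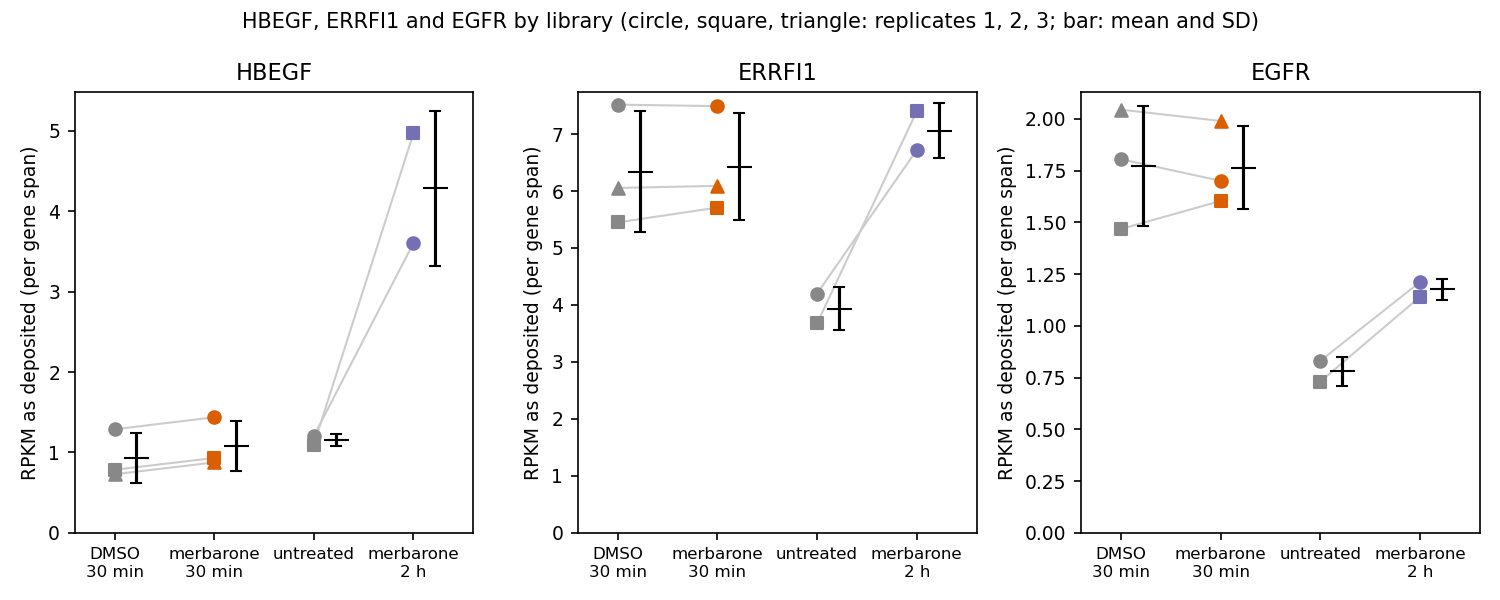
RPKM of HBEGF, ERRFI1 and EGFR in each library (vertical axes, RPKM) by group (horizontal axis). Points are libraries, grey lines join libraries with the same replicate number, and bars give the mean and SD. The 2 merbarone libraries at 2 h have HBEGF values of 3.61 and 4.97, above the other 8 libraries, while the groups at 30 min overlap for all 3 genes.

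ERRFI1, the feedback inhibitor, also rose at 2 h, against controls without vehicle. Untreated libraries had 4.20 and 3.68 RPKM and merbarone libraries 6.72 and 7.40, so both treated values lay above both controls, as in 22.5% of the genes tested. The means were 3.94 ± 0.370 and 7.06 ± 0.481 RPKM (SD, n = 2 each), a 1.79-fold ratio. The change on the log2(RPKM + 1) scale was 0.71 (SE 0.10), with a limma adjusted p of 0.00245. Unlike those of HBEGF, the ERRFI1 values at 2 h lay within reach of the 30 min experiment. There, DMSO libraries had 7.52, 5.45 and 6.05 RPKM and merbarone libraries 7.49, 5.71 and 6.09. The vehicle and merbarone values at 30 min overlapped almost fully, and the change was 0.02 (SE 0.13) with a limma adjusted p of 1.000. With the replicate number as a block the ERRFI1 change was the same, with an SE of 0.035, and did not pass.

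EGFR, the receptor itself, had a smaller difference at 2 h. Untreated libraries had 0.831 and 0.730 RPKM and merbarone libraries 1.21 and 1.14. The pairs did not overlap, with the treated pair higher, as in 22.5% of the 6620 genes tested. The means were 0.781 ± 0.0710 and 1.18 ± 0.0504 RPKM (SD, n = 2 each), a 1.51-fold ratio from 4707 and 7477 reads. The 4 libraries averaged 0.98 RPKM, just under the minimum of 1, so EGFR was not tested in the fit used for the other members. The deposited values divide its 2076 to 3943 reads per library by a length of 237601 bases. On the recovered reads limma's voom gave a log2 fold change of 0.59 (SE 0.10), adjusted p = 6.43e-04. With log2(RPKM + 0.1) and a minimum of 0.1 RPKM the change was 0.54, adjusted p = 0.0403. It did not pass without a filter (adjusted p = 0.127) or in 1 fit of all 10 libraries (adjusted p = 0.0944).

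At 30 min EGFR was at 1.81, 1.47 and 2.04 RPKM with DMSO and at 1.70, 1.60 and 1.99 with merbarone. The ranges overlapped, and the change was -0.00 (SE 0.09) with a limma adjusted p of 1.000. With the replicate number as a block the EGFR change was the same, with an SE of 0.036, and did not pass. All 4 libraries of the 2 h experiment were below the 6 of the 30 min experiment. In EGFR the treated libraries at 2 h therefore stood above their own controls but below every library of the other experiment. The pigment epithelium markers summed to 25.1 to 29.0 RPKM in the 2 h experiment and 8.82 to 11.5 in the 30 min experiment. Most of that difference was BEST1, with means of 18.8 RPKM in untreated and 2.58 in DMSO libraries, and BEST1 overlaps FTH1 on the opposite strand, so its value is uncertain. PMEL had means of 4.87 and 4.11 RPKM and OTX2 of 4.48 and 3.23. The simple epithelium markers summed to 62.0 to 76.1 RPKM in the 2 h experiment and 16.1 to 24.5 in the 30 min experiment. KRT8 and KRT18 overlap each other on opposite strands, and PMEL overlaps CDK2 on the opposite strand. Their values are therefore uncertain in the same way as that of BEST1. The part of these markers in the EGFR gap between experiments was not tested. In bulk RNA, fewer cells of a type and less RNA per cell cannot be told apart.

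The remaining ligand genes were low or at 0. TGFA, transforming growth factor alpha, ranged from 0.0149 to 0.0239 RPKM over the 10 libraries, with 19 to 93 reads. BTC, betacellulin, ranged from 0.0251 to 0.0743 RPKM with 15 to 138 reads, and EGF from 0.0176 to 0.0410 RPKM with 24 to 156 reads. EGF was the only 1 of these 3 whose groups at 2 h did not overlap, with 0.0219 and 0.0252 RPKM in untreated libraries and 0.0176 and 0.0216 in merbarone libraries, where 61.5% of the genes tested had groups that did not overlap in either direction. On the recovered reads at 2 h the log2 fold changes were 0.32 (SE 0.33) for TGFA, -0.18 (SE 0.37) for BTC and -0.26 (SE 0.32) for EGF. Their voom adjusted p-values were 0.556, 0.787 and 0.623, so no change was detectable at these read numbers.

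EREG, epiregulin, had 1 read in 1 merbarone library at 30 min and 0 in the other 9 libraries. A count of 0 allows up to 3 reads, or 0.00332 to 0.0106 RPKM depending on the library, a limit that covers counting error only. AREG, amphiregulin, was listed at 0 in all 10 libraries. It is uncertain, since 93% of the 50-base words of its span (chr4:75310853-75320722, GRCh37) also occur in the near-identical copy AREGB (chr4:75480629-75490486), which was listed at 0 too. How the authors treated reads that match both is not given in the sources used here.

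On the exon-scaled level, untreated cells had ERRFI1 first (19.3 to 22.02), then EGFR (10.9 to 12.4) and HBEGF (5.06 to 5.55), with no overlap between neighbours. BTC followed (0.473 to 0.764), and TGFA (0.323 to 0.397) and EGF (0.285 to 0.329) overlapped. At 2 h of merbarone HBEGF (16.6 to 22.9) overlapped EGFR (17.0 to 18.1), and ERRFI1 was at 35.2 to 38.8. In DMSO libraries ERRFI1 (28.6 to 39.4) overlapped EGFR (21.9 to 30.5), and HBEGF (3.36 to 5.94) lay below both. Intron reads, if counted, could shift this order and the shares that follow. For shares of the summed level of the 6 ligands, AREG was entered at its uncertain 0. HBEGF then made up 79.3% and 81.8% in untreated libraries and 93.0% and 94.8% at 2 h of merbarone. In the 30 min experiment its share was 59.8% to 77.7% with DMSO and 63.7% to 76.7% with merbarone.

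**Figure D2:**
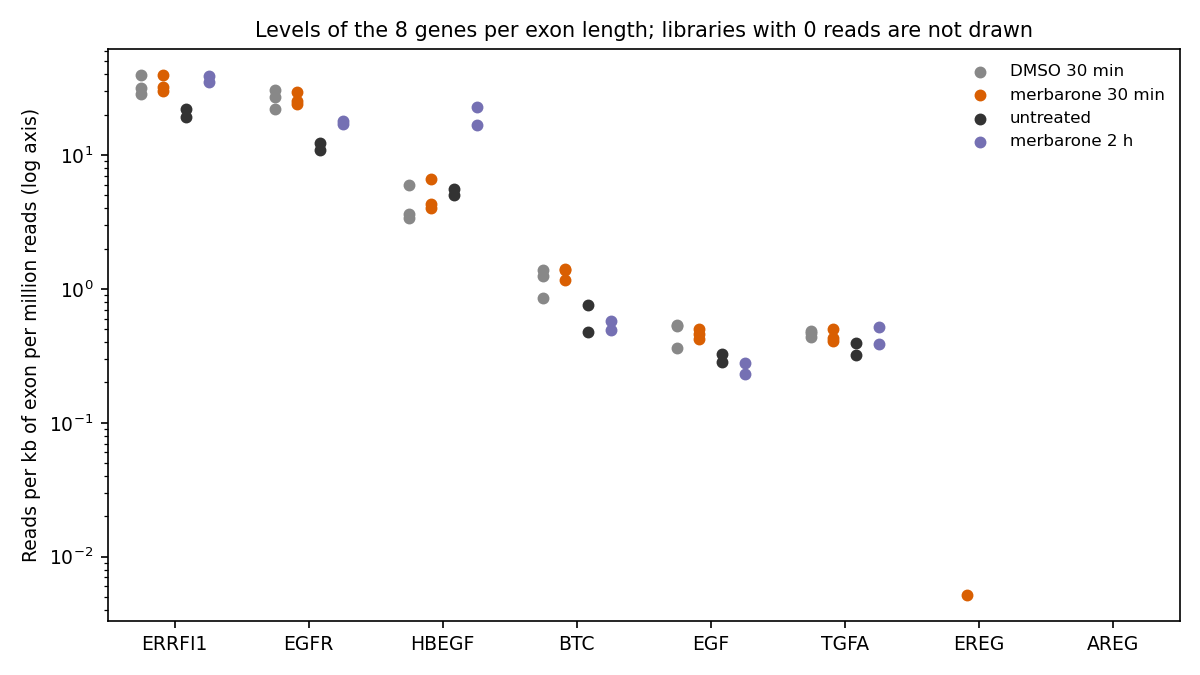
Exon-scaled level (reads per kilobase of exon, scaled for library depth, log axis) of the 8 genes in each library, by group. ERRFI1, EGFR and HBEGF lie between 3.36 and 39.4 in all libraries, and BTC, TGFA and EGF between 0.230 and 1.40, while the single EREG point is at 0.00520 and libraries with 0 reads are not drawn.

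Counted together at 2 h, 2 of the 8 members were tested and both, HBEGF and ERRFI1, rose. Over all 6620 genes tested 5.98% rose and 7.10% fell, 13.1% in all. Both calls were lost when no filter on low values was used (adjusted p = 0.0898 for HBEGF and 0.0922 for ERRFI1). Over the alternatives with neither a replicate block nor a left-out library, adjusted p-values ran from 7.12e-08 to 0.0898 for HBEGF. For ERRFI1 they ran from 2.92e-05 to 0.0922. The block fits at 2 h are not in these ranges, since they took their variance wholly from all genes together. Fits without a library are not in them either, since they left a lone library in a group. By voom 3 of 6 tested members rose, EGFR included, against 7.94% of 13440 genes that rose and 6.09% that fell. At 30 min none of the 3 tested members passed in limma, with or without the replicate block, and by voom none of 6 passed. Without the block none had an unadjusted p under 0.05 in limma. With the block 1 did, HBEGF, as did 208 of 6500 genes. The background there was 1 gene of 6500, or 0.0154%, and 8 genes, or 0.123%, with the replicate block. By voom it was 1 of 14012 genes, or 0.00714%, and 0.369% of genes had an unadjusted p under 0.05 in limma without the block. The median change of the 3 members at 30 min was 0.02, against -0.01 for all genes tested. At 2 h the median of the 2 tested members was 1.00, against -0.05.

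Between the untreated and the 2 h merbarone libraries some marker sums also moved. The mesenchyme list went from 807.0 to 818.6 RPKM in untreated cells to 833.8 to 848.2. Within it the ratio of the means, treated to untreated, was 2.21 for FN1 and 1.47 for COL1A1, while it was 0.91 for VIM, 0.793 for DCN and 0.78 for LUM. The simple epithelium list went from 62.0 to 68.4 to 70.3 to 76.1, and the blood list, nearly all CD68, from 20.9 to 21.2 to 17.4 to 18.9. The pigment epithelium sums overlapped. The part of these markers in the changes of HBEGF, ERRFI1 and EGFR was not tested.

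**Figure D3:**
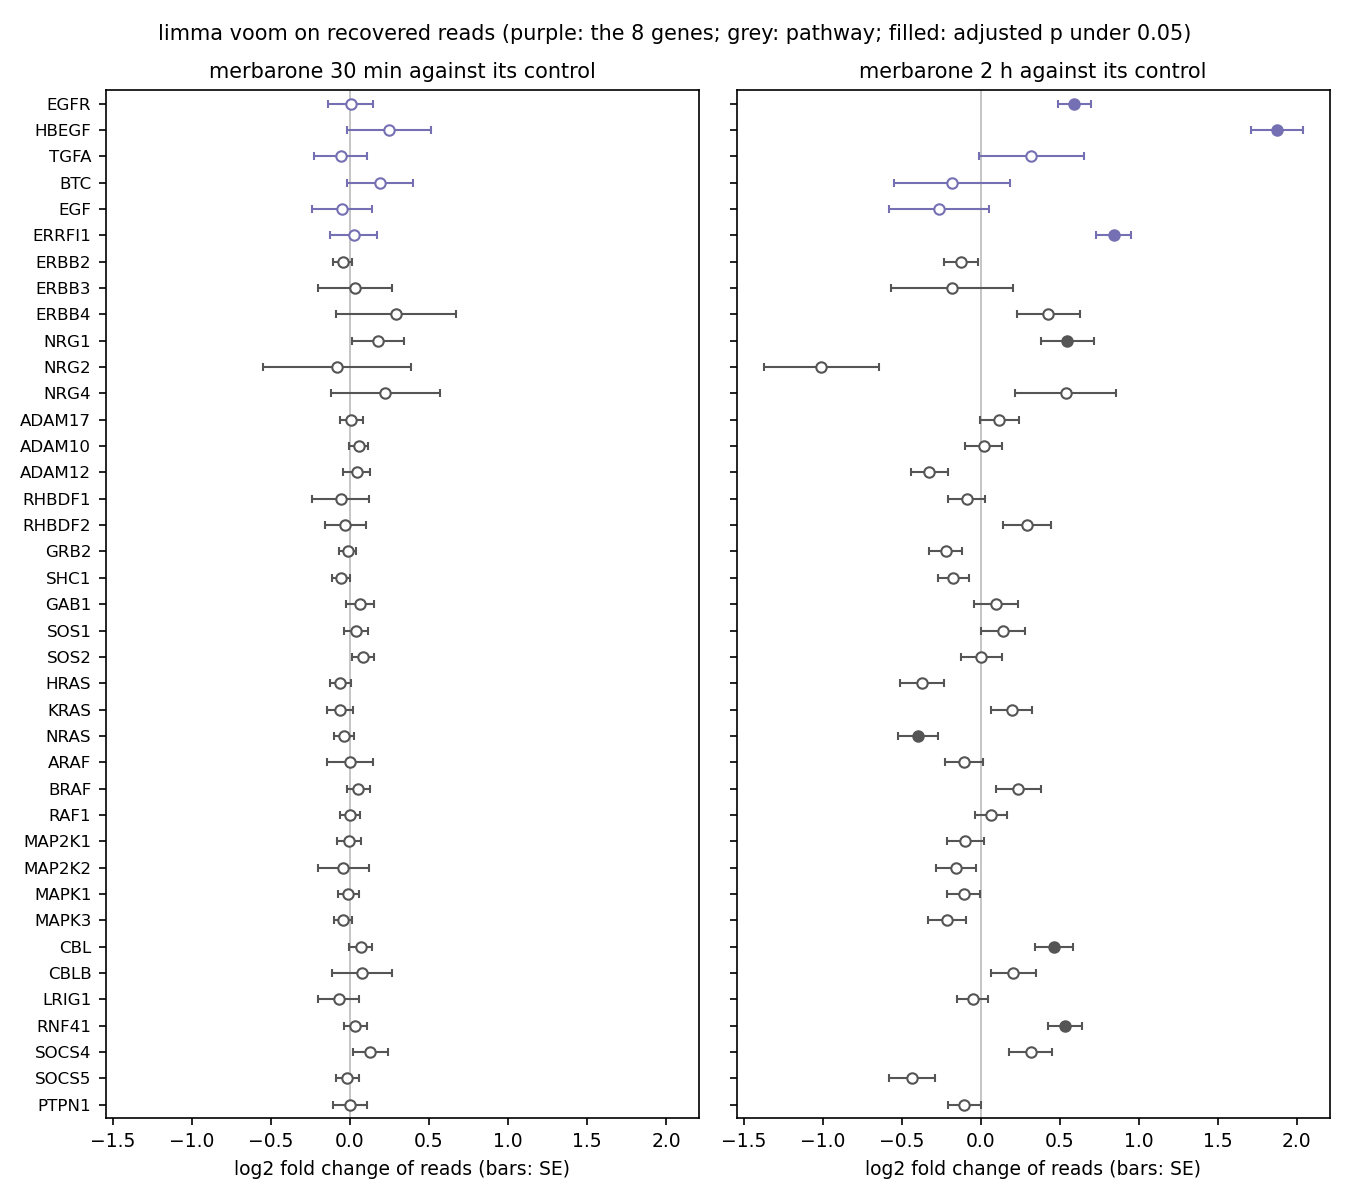
Log2 fold change of recovered reads by limma's voom (horizontal axes, with bars of 1 SE), merbarone against its control at 30 min (left) and 2 h (right), for the members in purple and the pathway genes in grey; filled points have an adjusted p under 0.05. HBEGF (1.88), ERRFI1 (0.84) and EGFR (0.59) are filled at 2 h, and no point is filled at 30 min.

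Whether the effect differed between the experiments was tested as a contrast over all 10 libraries, in which time, kind of control and experiment cannot be told apart. HBEGF passed with a difference of 1.18 (SE 0.22), adjusted p = 0.0353, as 1.63% of 6558 genes did in either direction and 1.27% upward. ERRFI1 (0.69, SE 0.19, adjusted p = 0.119) and EGFR (0.29, SE 0.13, adjusted p = 0.304) did not pass. The HBEGF call was lost in 12 of 19 alternatives, with limma adjusted p-values of 0.0523 to 0.161 in those 12. Over all 19 they ran from 2.29e-05 to 0.161. It was lost without DMSO replicate 2 (0.0523), without 30 min merbarone replicate 2 (0.0832) or 3 (0.0811), without untreated replicate 1 (0.0795) or 2 (0.133), and without 2 h merbarone replicate 1 (0.0544) or 2 (0.161).

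Of 35 other genes listed for the pathway, 16 were tested at 2 h, where 1 rose and none fell. Of all genes tested 5.98% rose and 7.10% fell, so the pathway's count is near the background. The listed genes had a median change of -0.08 against -0.05 for all genes tested and 4 genes with an unadjusted p under 0.05. The gene that rose was RNF41, a ubiquitin ligase known for lowering ERBB3. It had 4.86 and 5.17 RPKM in untreated libraries and 7.15 and 7.39 at 2 h of merbarone, with both treated libraries the higher, as in 22.5% of the genes tested. Its change was 0.46 (SE 0.09), limma adjusted p = 0.0124, and it was not called without 2 h merbarone replicate 1 (0.0699) or 2 (0.0975). At 30 min none of 18 tested genes passed, none had an unadjusted p under 0.05, none of 33 passed by voom, and the median was -0.02 against -0.01.

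Among the receptors, ERBB2, the ligandless partner of EGFR, changed by -0.10 at 2 h (limma adjusted p = 0.474). ERBB3 and ERBB4 were low, at 0.0386 to 0.0571 and 0.00423 to 0.0105 RPKM. On the exon-scaled level their order was reversed, with ERBB3 at 0.0779 to 0.115 and ERBB4 at 0.378 to 0.941. The proteases ADAM17 and ADAM10, which cut ligand precursors, were under the minimum at 2 h, and voom gave 0.12 (adjusted p = 0.566) and 0.02 (adjusted p = 0.939). LRIG1, a membrane protein that restrains ERBB receptors, changed by -0.03 (limma adjusted p = 0.786). On the recovered reads at 2 h, 4 of 33 listed genes passed: RNF41 (0.54, adjusted p = 0.00218), CBL, a ubiquitin ligase of the activated receptor (0.46, adjusted p = 0.0155), the ligand of ERBB3 and ERBB4 NRG1 (0.55, adjusted p = 0.0339) and, downward, NRAS (-0.40, adjusted p = 0.0405). The background for voom at 2 h was 14.0%.

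The genes whose pattern over the 10 libraries was most like that of HBEGF, by Pearson correlation of log2(RPKM + 1) centred on each experiment, were GADD45A (0.982), MTHFD2 (0.982) and AEN (0.975). For ERRFI1 they were TIPARP (0.980), ZRANB1 (0.978) and GADD45A (0.975), and for EGFR NEK6 (0.970), COL12A1 (0.962) and CHD2 (0.943). HBEGF and ERRFI1 correlated at 0.964, EGFR and ERRFI1 at 0.724 and EGFR and HBEGF at 0.642. The points share their libraries and the 2 h contrast, and 6558 genes were compared, so these values are descriptions.

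By the GRCh37 annotation HBEGF lies on the minus strand at chr5:139712428-139726188 and ERRFI1 on the minus strand at chr1:8064464-8086369. EGFR is on the plus strand at chr7:55086710-55279321. None of the 8 members overlaps another gene of the tables, but the antisense transcripts EGFR-AS1 over EGFR and ENSG00000284747 over ERRFI1 are annotated there. Among the pathway genes named, CBL overlaps MCAM, ERBB2 overlaps PGAP3 and MIEN1, ADAM17 overlaps IAH1 and LRIG1 overlaps SLC25A26, all on opposite strands. ERBB3 overlaps ENSG00000257411 on the same strand. The strand setting of the read counting is not given in the sources used here, so reads of these pairs may not be told apart.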

How the data were processed

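Each library had its own table of RPKM by Ensembl gene, deposited by the authors and labelled so per the file headers. Per the submitters' processing notes the tools named are Bowtie 1.2.0, deepTools 2.4.1, DESeq2 and edgeR, and the build hg19 (GRCh37), with no role given for each. Per the labels' protocols, 150 ng of total RNA went into a stranded kit that selects polyadenylated RNA. Symbols were matched on gene identifiers for 19637 of 20327 genes. Read numbers were recovered from the steps in the RPKM values, and whole reads came out for 17680 of 17680 genes above 0 (tolerance 0.0001). Implied lengths lay within 1% of the gene span for 74.9% of 17234 genes.

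For the tests log2(RPKM + 1) was fitted with limma 3.58.1 in R 4.3.3 (lmFit, then eBayes with a trend), for genes averaging 1 RPKM or more, two-sided, with Benjamini-Hochberg adjustment over all genes tested and a threshold of 0.05. The libraries of 1 experiment entered each fit, except that all 10 entered the contrast between experiments and the alternative with 1 fit of all libraries. This scale understates changes of low genes. The voom fits used genes with a mean of at least 10 recovered reads. Other alternatives were the pseudocount, the filter, scaling, trend, replicate block, 1 fit of all libraries and leaving out each library. Methods were tested on simulated data. Same-numbered libraries at 30 min deviated together (correlations 0.925, 0.646 and 0.605 over genes). The main fits nevertheless held no term for the replicate number. It entered only the replicate-block alternatives and the changes given within same-numbered pairs. No replicate pair held identical values.

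Named were all 8 members, pathway genes past the threshold, ERBB2, ERBB3, ERBB4, NRG1, ADAM17, ADAM10, CBL and LRIG1, and the 3 genes most like each member with a mean of at least 1 RPKM. Members and lists were chosen with earlier results of these data known. Reads were recovered and figures drawn in Python 3.11.15 with NumPy 2.4.6, pandas 2.3.3 and matplotlib 3.10.9.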

Additional observations from a re-analysis of the deposited data

Results flagged for a closer look

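The change of HBEGF at 2 h exceeded that at 30 min by 1.18 on the log2(RPKM + 1) scale. This difference between the effects in the 2 experiments passed its own test in the main fit. The call was lost with voom, with quantile normalization, with a pseudocount of 0.1 and without a filter. It was kept with median scaling, without a trend and with the replicate block. Time, kind of control and experiment cannot be told apart in this difference.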

How the results depend on the processing

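No member or pathway gene passed at 30 min in any of 17 alternatives. The 2 members called at 2 h became 0 without a filter and 1 at a mean of at least 5 RPKM, where fewer genes are tested, and 2 to 3 when each library was left out in turn. The 3 include EGFR, which reached the minimum of 1 RPKM only because an untreated library, where it is low, was left out. A lone library was then assumed to vary like the others. The member whose effect differed between experiments became 0 with a pseudocount of 0.1, without a filter, at 5 RPKM, with the pseudocount of 0.1 and a minimum of 0.1 RPKM, with quantile normalization and with voom, and 0 to 1 when leaving out each library. The replicate block, where at 2 h the libraries share only a number (correlation 0.300), gave 3 such members, and 3 with voom and the block. Over all genes tested the contrast called 1255 of 6558 with the block and 2094 of 13900 with voom and the block. In the main fit it called 107 of 6558. Pathway genes called at 2 h went from 1 of 16 tested to 0 of 34 without a filter and 2 of 18 in 1 fit of all 10 libraries. They were 4 of 33 with voom, 4 of 16 with the replicate block and 9 of 33 with voom and the block. Over all genes tested the calls were 866 of 6620 in the main fit, 53 of 16810 without a filter and 599 of 6558 in 1 fit of all libraries. With voom they were 1886 of 13440, with the block 2129 of 6620 and with voom and the block 3438 of 13440. The cause was not tested.

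At 30 min EGFR turned positive by 0.00028 with a pseudocount of 0.1, with or without the lower filter, 0.0062 with median scaling, 0.0015 with quantile normalization, 0.0038 with voom and 0.00015 with voom and the replicate block. Leaving out each library gave -0.083 to 0.069 for EGFR and -0.080 to 0.13 for ERRFI1. For HBEGF it gave 0.032 (without DMSO replicate 3) to 0.18 (without merbarone replicate 3), and without replicate 1 of either group HBEGF was under the minimum.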
